A study of Mus musculus with 2 samples.

Results

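The small RNAs described here are microRNA (miRNA) reads that carry 1 uridine at the 3′ end that the genome does not encode. A read counted as U-tailed when it matched the genome nowhere, had no annotation class, ended in T, and became a read of the miRNA class once that T was removed. The miRNA name was taken from that shorter read, which is called the untailed form. By this rule 2507 of the 2344366 distinct sequences were U-tailed miRNA reads, and they extended 2507 of the 12128 distinct sequences of the miRNA class. They came from 453 of 662 miRNA arms and from 276 of 358 miRNA names, where an arm (5p or 3p) is the product of 1 side of a hairpin precursor. Both libraries held 1472 of the sequences, 1994 were read in wild type and 1985 in Ago2ADH, and 649 rested on a single read.

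Small RNA of 19 to 30 nt was sequenced from total RNA of fetal mouse liver at E18.5 (a late embryonic day), strain B6/129. The 1 wild type library held 7599870 reads, of which 2808232 were of the miRNA class. The 1 library with the Ago2ADH genotype, in which Argonaute 2 is catalytically inactive, held 7046197 reads, of which 2811227 were of the miRNA class. With 1 library per genotype no difference has a replicate check, the labels do not say how many animals a library holds, and all intervals cover counting error only. The fetal liver contains both hepatocytes and blood-forming cells, and fewer cells of a type and less RNA per cell cannot be told apart in these samples.

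Uridines are added to the 3′ ends of miRNAs and their precursors by the terminal uridylyltransferases TUT4 and TUT7, and adenosines mainly by GLD-2 (Tent2). A mature miRNA sits in an Argonaute protein, which holds its 3′ end. The 3′ end of a 3p miRNA is also the 3′ end of its precursor, so a uridine there can be added before or after Dicer cleavage, whereas the 3′ end of a 5p miRNA is made by Dicer. miR-451 is an exception: its precursor is cut by Argonaute 2 itself, in place of Dicer, and the product is then trimmed from its 3′ end.

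The forms printed here come from arms with many U-tailed reads or a high U-tailed share, and they were picked after their values were seen, since the rest of the description turns on where they end. Each is the read from 5′ to 3′ in lower case, and the capital T is the added uridine that the hairpin does not encode. Positions are those of the untailed part, by exact match to the miRNA hairpins of GENCODE M21 (GRCm38).
miR-652-3p, 21 nt and U: aatggcgccactagggttgtgT
miR-24-3p, 22 nt and U: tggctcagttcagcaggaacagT
miR-127-3p, 22 nt and U: tcggatccgtctgagcttggctT
miR-127-3p, 20 nt and U: tcggatccgtctgagcttggT
miR-26a-5p, 22 nt and U: ttcaagtaatccaggataggctT
miR-103-3p, 23 nt and U: agcagcattgtacagggctatgaT
miR-99a-5p, 22 nt and U: aacccgtagatccgatcttgtgT
miR-351-5p, 24 nt and U: tccctgaggagccctttgagcctgT
miR-675-5p, 23 nt and U: tggtgcggaaagggcccacagtgT
miR-345-3p, 21 nt and U: ccctgaactaggggtctggagT
The miR-652-3p form lies at chrX:142739060-142739080 on the plus strand, in a hairpin within an intron of Tmem164. The miR-24-3p form matches 2 hairpins, 1 of them at chr8:84208875-84208896 on the plus strand in an exon of the lincRNA Gm26532. The miR-127-3p form of 22 nt lies at chr12:109592888-109592909 on the plus strand, opposite an exon of Rtl1. The miR-351-5p form lies at chrX:53053315-53053338 on the minus strand, where no other gene is annotated over the hairpin, and the miR-675-5p form lies at chr7:142577111-142577133 on the minus strand in an exon of H19.

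A second set shows forms whose U-tailing differed between the libraries or between neighbouring ends of 1 miRNA. The forms of each miRNA are listed with the shortest first, so that the base before the capital T can be compared.
miR-486-5p, 21 nt and U: tcctgtactgagctgccccgaT
miR-486-5p, 22 nt and U: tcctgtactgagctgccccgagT
miR-486-3p, 21 nt and U: cggggcagctcagtacaggatT
miR-486-3p, 22 nt and U: cggggcagctcagtacaggatgT
miR-15a-5p, 21 nt and U: tagcagcacataatggtttgtT
miR-15a-5p, 22 nt and U: tagcagcacataatggtttgtgT
miR-27a-3p, 20 nt and U: ttcacagtggctaagttccgT
miR-27a-3p, 21 nt and U: ttcacagtggctaagttccgcT
miR-451-5p, 23 nt and U: aaaccgttaccattactgagtttT
miR-451-5p, 26 nt and U: aaaccgttaccattactgagtttagtT
miR-451-5p, 27 nt and U: aaaccgttaccattactgagtttagtaT
miR-451-5p, 30 nt and U: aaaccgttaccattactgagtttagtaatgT
The miR-486-5p sequence of 22 nt matches 2 hairpins, 1 of them at chr8:23142587-23142608 on the plus strand within an intron of Ank1. The miR-15a-5p form of 22 nt lies at chr14:61632075-61632096 on the minus strand within an intron of Dleu2. The miR-451-5p form of 30 nt lies at chr11:78073186-78073215 on the plus strand, where no other gene is annotated over the hairpin.

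U-tailed reads were a large share of the miRNA forms they extend. Wild type held 137112 U-tailed reads beside 1331186 reads of the same untailed forms, a tailed share of 9.34% (95% Clopper-Pearson interval 9.29 to 9.39). Ago2ADH held 151410 beside 1222287, a tailed share of 11.0% (10.97 to 11.07). The odds of a U-tailed against an untailed read were thus 0.27 higher in Ago2ADH on the log2 scale (95% Woolf interval 0.26 to 0.28). Without miR-451 and miR-652-3p the shares were 10.03% and 10.05%, and the log2 odds ratio was 0.00 (-0.01 to 0.02). In Ago2ADH, miR-451-5p had 4368 miRNA-class reads, compared with 326796 in wild type, and in wild type most of its reads were untailed.

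For scale, reads with 1 added A made 10.05% of the forms they extend in wild type and 9.37% in Ago2ADH. Reads with 1 added C made 0.393% and 0.403%, and reads with 1 added G made 0.360% and 0.359%. The shares of added U and A were thus both far above those of added C and G. Whether added C and G give a background level for added U and A was not tested. Per miRNA-class read the level of U-tailed reads was 0.14 higher in Ago2ADH on the log2 scale, and -0.03 when miR-451 was left out of the total. The rule cannot find a uridine on a form that the hairpin itself continues with U, and such forms made up 51.3% of all miRNA-class reads in wild type and 55.3% in the other library. The adapter sequence was not given in the sources used here, so the part of adapter trimming in the added bases was not tested.

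By the rule U-tailed reads are 1 base longer than a read of the miRNA class, so their lengths follow in part from how they were chosen. They ranged from 16 to 32 nt, the most frequent length was 23 nt in both libraries, and 94.1% of them in wild type and 96.5% in Ago2ADH were 20 to 25 nt long. Of the 2507 sequences, 1132 lay on 5p arms, 1326 on 3p arms and 49 could not be placed. The 10 arms with most U-tailed reads held 45.3% of those in wild type and 41.4% of those in Ago2ADH.

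miR-652-3p had more U-tailed reads than any other arm, and more U-tailed than untailed reads in both libraries. Its 16 members summed to 13402 reads in wild type beside 3183 untailed, and to 15434 in Ago2ADH beside 3545 untailed. The tailed shares were 80.8% (80.2 to 81.4) and 81.3% (80.8 to 81.9), with a log2 odds ratio of 0.05 (-0.03 to 0.12). Almost all of it came from the 21 nt form that ends in the printed gttgtg. That form had 13014 U-tailed and 1619 untailed reads in wild type, and 15064 and 2026 in Ago2ADH. It also carried an added A in 2887 and 3202 reads, but was followed by C, the base the hairpin encodes there, in only 83 and 84. The form 1 nt shorter, which ends in U, had 82 U-tailed and 1326 untailed reads in wild type, a share of 5.82%.

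In 7 of the 208 arms with enough reads more than 50% were U-tailed in wild type, and the same was so of 6 arms in Ago2ADH. An arm had enough reads with 20 or more U-tailed reads over both libraries and 100 or more untailed reads in each. After miR-652-3p came miR-345-3p with 62.4% in wild type and 58.3% in Ago2ADH. miR-675-5p, which is made from the H19 transcript, had 61.5% and 62.1%. miR-666-3p had 59.6% and 55.6%, and miR-192-3p, the lesser arm of a hepatocyte miRNA, had 55.3% and 46.2%. miR-770-5p, from the Meg3 transcript, had 50.9% and 54.8%, and miR-187-3p had 50.5% and 49.3%. Below that level came miR-30a-3p with 49.1% and 46.1%, miR-351-5p with 47.2% and 52.8%, and miR-361-5p with 45.1% and 48.4%. The order of these 10 arms in wild type rests in places on neighbours whose intervals overlap, such as miR-770-5p (45.9 to 55.8) and miR-187-3p (47.2 to 53.8).

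Among the arms with most U-tailed reads the share itself varied widely. miR-24-3p had 36.8% in wild type and 37.9% in Ago2ADH, and miR-143-3p, a miRNA of smooth muscle and stromal cells, had 37.7% in both. miR-127-3p, from the imprinted Dlk1-Dio3 cluster, had 23.7% and 24.5%. miR-26a-5p had 12.3% and 12.8%, and miR-103-3p had 12.2% and 11.1%. At the low end stood miR-122-5p, the most abundant hepatocyte miRNA, with 4819 U-tailed beside 347194 untailed reads in wild type (1.37%) and 4531 beside 355790 in Ago2ADH (1.26%). The lowest share of all in wild type was that of miR-21-5p, with 79 beside 19359 (0.406%), and 0.374% in Ago2ADH. miR-21-5p and the arms outside the naming rule that follow were chosen after their values were seen.

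The shares were alike in the 2 libraries arm by arm. The median over the 208 arms was 10.97% in wild type and 11.18% in Ago2ADH. Spearman's rho between the libraries was 0.96 over these arms, which share the depth of their library and the base composition of their ends. In only 25 of the 208 arms did the odds differ by 1.5-fold or more. The median log2 odds ratio was 0.04, with quartiles of -0.15 and 0.23. The order of the arms by added A was another one. Over 188 arms with enough reads for both bases, rho between the shares of U-tailed and of A-tailed reads was 0.45 (wild type) and 0.43 (Ago2ADH), and the U-tailed share was the higher one in 122 and 124 arms.

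The base at which the untailed form ends went with the share of added U. For this comparison all untailed forms followed by 1 known hairpin base other than U were pooled. In wild type, 26.01% of the reads on forms ending in G were U-tailed, against 12.6% on forms ending in A, 13.8% on C and 3.38% on U. In Ago2ADH the corresponding values were 25.1%, 13.2%, 14.6% and 4.77%. Pooled values rest on a few abundant miRNAs, so the median over forms with 100 or more reads is given too. It was 16.7% for 128 forms ending in G, 9.59% for 118 ending in A, 4.22% for 85 ending in C and 3.38% for 216 ending in U in wild type. The end U-G, as in the printed miR-652-3p, miR-99a-5p and miR-675-5p, had a median of 29.5% over 37 forms, U-A had 28.2% over 28 forms and A-G had 26.1% over 34. G-U stood lowest with 2.02% over 79 forms. Forms with the same end varied widely. The quartiles in wild type were 11.2% and 49.0% for U-G, 1.86% and 46.8% for U-A, 5.60% and 54.9% for A-G, and 0.485% and 4.27% for G-U.

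The same held between forms of 1 arm, although such forms can also differ in 5′ start and length. Of 80 arms with 100 or more reads on both kinds of form in wild type, the forms ending in G had the higher U-tailed share in 61 and the lower in 19. The median share was 17.4% on the G forms and 6.41% on the others. In Ago2ADH it was higher in 61 of 85. With added A it was higher in 62 of 95 arms in wild type, with medians of 9.62% and 5.40%, and with added C in 58 of 85, at medians of 0.943% and 0.265%. Among 446 forms with 30 or more U-tailed reads over both libraries, 87 were more often tailed than untailed in wild type. Of these, 55 ended in G, 18 in A, 12 in C and 2 in U, whereas the 446 forms themselves ended in G 150 times, in A 113, in C 61 and in U 122.

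The 2 printed miR-127-3p forms are an example. The 22 nt form, which ends in U, had 3938 U-tailed and 18193 untailed reads in wild type (17.8%). The 20 nt form, which ends in G, had 2047 and 3519 (36.8%). Another form, of 21 nt, that starts 1 base further 5′ and ends at the same G had 958 U-tailed reads and a share of 84.0%. In Ago2ADH the same forms had 18.8%, 37.8% and 87.2%. The U-tailed share of miR-127-3p thus differed more between these forms than between the libraries.

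A member on a form shorter than the usual miRNA has the length of that miRNA with another last base. The miR-17-5p form of 22 nt is the clearest case, since the hairpin and the RefSeq miRNA go on with G. In wild type 7030 reads carried that G, 952 carried U in its place, 239 carried A and 19 carried C. In Ago2ADH the numbers were 6747, 924, 250 and 10. A shorter miRNA with an added U and a full-length one read with a wrong last base cannot be told apart in such a read. Which of them these reads are was not tested. For miR-20a-5p the same position held 21145 reads with G, 1346 with U, 1643 with A and 46 with C in wild type.

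Several miRNAs share a seed, the bases 2 to 8 that choose targets, but have other bases at the 3′ end, and some of these had unlike U-tailed shares. The mature sequences are from RefSeq (GRCm38.p6), which held 43 of the 55 arms named here, and the seed is in capitals.
miR-125a-5p: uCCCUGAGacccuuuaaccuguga
miR-351-5p: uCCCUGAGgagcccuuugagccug
miR-99a-5p: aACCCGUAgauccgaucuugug
miR-99b-5p: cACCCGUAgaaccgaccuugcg
miR-15a-5p: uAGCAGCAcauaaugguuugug
miR-16-5p: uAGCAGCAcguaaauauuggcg
miR-322-5p: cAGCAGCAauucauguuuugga
miR-17-5p: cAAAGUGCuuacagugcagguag
miR-20a-5p: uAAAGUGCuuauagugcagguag
miR-93-5p: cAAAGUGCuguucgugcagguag
With the seed CCCUGAG, miR-351-5p had a U-tailed share of 47.2% in wild type and 52.8% in Ago2ADH, and miR-125a-5p had 7.84% and 6.87%. With ACCCGUA, miR-99a-5p had 29.3% and 30.3%, and miR-99b-5p had 13.4% and 13.2%. With AGCAGCA, miR-15a-5p had 10.6% and 18.7%, miR-16-5p 10.2% and 9.29%, and miR-322-5p 5.23% and 6.13%. The 3 members with AAAGUGC end in the same bases. Their shares were 25.7% and 26.5% for miR-17-5p, 26.7% and 26.3% for miR-20a-5p, and 19.0% in both for miR-93-5p. Whether miRNAs with like 3′ ends have like shares was not tested. Their intervals in wild type were 24.4 to 26.9, 25.5 to 27.8 and 17.9 to 20.2, so miR-17-5p and miR-20a-5p did not differ beyond counting error and miR-93-5p lay below both.

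The 3p arms had a somewhat higher median share than the 5p arms. Over 206 arms, as many of 1 kind as of the other, the median was 13.0% on 3p and 10.04% on 5p in wild type, and 14.1% and 9.69% in Ago2ADH. The intervals of these medians over arms overlapped. They were 10.3 to 16.9 and 7.88 to 12.3 in wild type, and 10.8 to 16.1 and 7.31 to 12.8 in Ago2ADH. With all miRNA-class reads as untailed they did not overlap in either library. Pooled over reads, 18.46% on 3p and 5.86% on 5p arms were U-tailed in wild type, but miR-122-5p and miR-451-5p, both abundant and little tailed, weigh on the 5p value. The median log2 odds ratio between the libraries was 0.05 on 3p and 0.02 on 5p arms.

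Further reads without a genome match had 1 more base after the added U. Per 100 U-tailed reads there were 11.2 with U-U in wild type and 11.0 in Ago2ADH, 4.71 and 4.76 with U-A, 0.395 and 0.310 with U-C, and 0.629 and 0.359 with U-G. The number of U-U reads per 100 reads with 1 U had a median of 5.97 in wild type and 5.70 in Ago2ADH over 85 arms with 200 or more U-tailed reads. miR-328-3p had the most, 45.8 and 48.6, followed in wild type by miR-127-3p with 35.2 and 33.4 and by miR-484-5p with 33.5 and 37.6. miR-122-5p, which was rarely U-tailed at all, had 27.7 and 25.7. The second U can be the base that the hairpin itself has at that position, and then a second added U and an encoded base after a mismatched one cannot be told apart. Over 416 forms with 30 or more U-tailed reads and a known hairpin sequence, this held for 5508 of 13387 U-U reads in wild type (41.1%) and for 5636 of 14745 in Ago2ADH (38.2%). It held for every U-U read on such forms of miR-122-5p (1271 and 1091), and for 15.2% of 2502 and 15.6% of 2620 on those of miR-127-3p. On those of miR-484-5p it held for 71 of 120 in wild type (59.2%) and 140 of 197 in Ago2ADH (71.1%). On that of miR-328-3p it held for 0 of 92 and 0 of 124. miR-652-3p, which was mostly U-tailed, had 5.51 and 5.25, and miR-30a-3p, near 50% U-tailed, had 21.8 and 20.6.

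Between the genotypes few arms met the size rule, which asks for odds of a U-tailed read at least 2-fold apart and a 95% Woolf interval that excludes no difference. Of the 208 arms, 2 rose in Ago2ADH (0.962%) and 3 fell (1.44%). miR-329-5p had 5 U-tailed reads beside 293 untailed in wild type and 15 beside 296 in Ago2ADH (log2 odds ratio 1.48, 0.06 to 2.90). miR-380-3p had 9 beside 120 and 32 beside 190 (1.11, 0.02 to 2.21). Both are products of the Dlk1-Dio3 cluster, both rest on few reads, and with 50 or more U-tailed reads required no arm rose.

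The arms that fell were led by reads from the second part of the miR-451 hairpin, which are listed as miR-451-3p because their middle lies beyond the middle of the hairpin. They had 114 U-tailed reads beside 373 untailed in wild type (23.4%) and 38 beside 526 in Ago2ADH (6.74%), a log2 odds ratio of -2.07 (-2.63 to -1.51). By position, many of the U-tailed ones in wild type lie within the longer miR-451-5p forms and lack their first bases. Whether they are pieces of that product was not tested. The miRNA-class reads listed as miR-451-3p numbered 990 in wild type and 1053 in Ago2ADH, against 326796 and 4368 for miR-451-5p. The read ttactgagtttagtaatgT, at chr11:78073198-78073215 before its added U, ends where the 30 nt miR-451-5p form ends. It was read 41 times with U and 13 times without in wild type, and 0 times with U and 48 times without in Ago2ADH, where 0 of 48 allows a share of up to 6.25%. Forms of 16, 17 and 19 nt that end at the same base added 21, 23 and 19 U-tailed reads in wild type. In Ago2ADH the forms of 16 and 17 nt had 0 reads with U and 0 without, and the 19 nt form had 2 and 0, so these 3 forms give no lower share there. The 21 nt form tttagtaatggtaacggttctT, from further along the hairpin, had 3 U-tailed beside 68 untailed reads in wild type (4.23%) and 19 beside 233 in Ago2ADH (7.54%). miR-574-3p had 49 U-tailed reads (21.97%) and 16 (10.5%), with a ratio of -1.23 (-2.10 to -0.36), and miR-300-5p had 13 beside 832 and 8 beside 1278 (-1.29, -2.53 to -0.04). miR-300-5p no longer met the rule with an exact conditional interval (-2.80 to 0.07).

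miR-451-5p itself, the erythroid miRNA made by Argonaute 2 cleavage, had U-tailed shares that differed with the position of its 3′ end. The 30 nt form ends in G and had 1087 U-tailed beside 236 untailed reads in wild type, a share of 82.2%. The 29 nt form had 146 beside 4943 (2.87%), the 27 nt form, which ends in A, had 1014 beside 1550 (39.5%), and the 26 nt form had 1125 beside 54679 (2.02%). The 23 nt form, the most abundant of those with a member, had 224 beside 159318 (0.140%). The 24 nt form, which also ends in A, had 415 beside 21299 (1.91%). In Ago2ADH the 30 nt form had 3 U-tailed and 0 untailed reads, the 27 nt form 0 and 10, the 24 nt form 1 and 117, the 26 nt form 9 and 160, and the 23 nt form 0 and 1388, where 0 of 1388 allows a share of up to 0.216%. The 26 nt form met the size rule upward, from 2.02% to 5.33% (log2 odds ratio 1.52, 0.58 to 2.47), on those 9 U-tailed reads. Over all forms wild type had 4552 beside 259335 reads, or 1.72%, and Ago2ADH 21 beside 1919, or 1.08% (-0.65, -1.26 to -0.03), which did not meet the rule.

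miR-486, the other erythroid miRNA with a large number of U-tailed reads, differed between the libraries in opposite ways at neighbouring ends. For miR-486-5p the 22 nt form, which ends in G, had 5946 U-tailed and 4426 untailed reads in wild type (57.3%) and 1178 and 2117 in Ago2ADH (35.8%), a log2 odds ratio of -1.27 (-1.39 to -1.15). The 21 nt form, which ends in A, had 967 and 4371 in wild type (18.1%) and 1767 and 4873 in Ago2ADH (26.6%), a ratio of 0.71 (0.59 to 0.84). Over the whole arm 42.8% and 29.1% were U-tailed, with a ratio of -0.87 (-0.94 to -0.79), below the 2-fold limit. With the mean of added C and G on the same reads taken off it was -1.53 (-1.62 to -1.44), past that limit. However, this arm had the highest C-tailed share, 15.5% in wild type and 20.8% in Ago2ADH, where the medians over arms were 0.401% and 0.400%. What was taken off was thus not the usual low level of added C, and it differed between the libraries. The part of added C in the move past the limit was not tested. Added A on the 22 nt form was read 1596 times in wild type and 745 times in Ago2ADH, and added C on the 21 nt form 857 and 1337 times.

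The other arm of the hairpin, miR-486-3p, differed between the libraries in the same directions at these ends, although in wild type its form ending in G did not have the higher share. Its 22 nt form, which ends in G, had 123 U-tailed and 628 untailed reads in wild type (16.4%) and 204 and 2342 in Ago2ADH (8.01%), with a ratio of -1.17 (-1.52 to -0.82). Its 21 nt form, which ends in U, had 208 and 979 (17.5%) and 1726 and 5506 (23.9%), with a ratio of 0.56 (0.33 to 0.79). miR-486-3p as a whole had 1842 miRNA-class reads in wild type and 9083 in Ago2ADH, while miR-486-5p had 9684 and 7562. Taken one by one as sequences, 378 untailed forms had enough reads, and 5 rose (1.32%) and 15 fell (3.97%) by the size rule. The G-ending forms of miR-486-5p and miR-486-3p were among those that fell.

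miR-15a-5p had the most precisely measured higher share in Ago2ADH among arms over 1.5-fold, but at the level of the arm it stayed under the 2-fold limit. It had 719 U-tailed beside 6037 untailed reads in wild type and 1223 beside 5310 in Ago2ADH, a log2 odds ratio of 0.95 (0.81 to 1.09). Most of its U-tailed reads were on the 22 nt form, which ends in G. That form had 626 beside 597 (51.2%) in wild type and 1118 beside 643 (63.5%) in Ago2ADH. Its ratio, 0.73 (0.52 to 0.94), was below that of the whole arm. The 21 nt form, 1 base shorter and ending in U, was the most abundant one and had 15 beside 5191 (0.288%) and 9 beside 4461 (0.201%). Its ratio was -0.49 (-1.65 to 0.68). Added C on the 22 nt form was read only 3 and 8 times. miR-16-5p, made from the same Dleu2 transcript among others and with the same seed, had a ratio of -0.15 (-0.33 to 0.02).

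miR-27a-3p, which is encoded beside miR-24, had 499 U-tailed beside 2234 untailed reads (18.3%) and 1169 beside 3476 (25.2%), a log2 odds ratio of 0.59 (0.42 to 0.76). Its 21 nt form, which ends in C, had 150 beside 2067 in wild type and 437 beside 3191 in Ago2ADH (0.91, 0.63 to 1.19). The 20 nt form, which ends in G, was at 78.7% and 81.0%, with a ratio of 0.21 (-0.20 to 0.62). With a limit of 1.5-fold in place of 2-fold, 6 arms were higher (2.88%) and 7 lower (3.37%), miR-15a-5p and miR-27a-3p among the first and miR-486-5p and miR-451-5p among the second.

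Most other large U-tailed arms differed little. miR-24-3p had a log2 odds ratio of 0.07 (0.01 to 0.13), miR-127-3p 0.07 (0.01 to 0.12), miR-143-3p 0.00 (-0.06 to 0.07) and miR-541-5p 0.02 (-0.04 to 0.09). miR-351-5p and miR-665-3p, at 0.32 (0.22 to 0.42) and 0.33 (0.23 to 0.42), lay above 0 beyond counting error, and miR-223-3p, a miRNA of myeloid cells, lay below at -0.26 (-0.35 to -0.18). Over the 208 arms the interval lay above 0 in 25, below 0 in 18 and included 0 in 165. With added A, 2 of 229 arms rose (0.873%) and 6 fell (2.62%), and with added G, 1 of 96 rose (1.04%) and 2 fell (2.08%).

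By family and cell type, the median log2 odds ratio of each list lay between -0.08 and 0.08, beside 0.04 over all arms. Of 5 let-7 arms 0 rose and 0 fell, with a median of -0.08 and a median share of 7.99% in wild type; let-7i-5p had 16.2% and 13.9%, let-7e-5p 7.99% and 7.58%, and let-7b-5p 10.8% and 10.4%. let-7 precursors are the best known targets of TUT4 and TUT7. Of 12 erythroid arms 0 rose and 1 fell, beside 1.44% of all 208 arms, with a median of -0.08. The arm that fell was miR-451-3p, many of whose U-tailed reads in wild type lie within the longer miR-451-5p forms. miR-144-3p had shares of 4.49% and 4.75%. Of 12 hepatocyte arms none rose or fell, with a median of -0.05, and miR-192-5p had 12.7% and 14.3% and miR-194-5p 4.80% and 4.75%. Of 44 arms of the Dlk1-Dio3 cluster 2 rose and 1 fell, beside 0.962% and 1.44% of all 208 arms, with a median of 0.04 and a median share of 8.41%; these calls rest on the few reads given above.

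None of the arms in the other lists rose or fell. The median log2 odds ratio was 0.00 for 6 arms of the miR-15/16 family and for 14 of the miR-17-92 cluster and its paralogs, whose median share in wild type was 10.4% and 14.2%. For 8 arms of the miR-30 family it was -0.04, and miR-30a-5p, miR-30c-5p and miR-30e-5p had shares of 7.16%, 13.1% and 9.71% in wild type. For 5 arms of the miR-10, miR-99, miR-100 and miR-125 families it was -0.03 at a median share of 29.3%, the highest of the lists. For 5 arms of miR-23, miR-27 and miR-24 it was 0.07 at 20.5%, with miR-23b-3p at 31.8% and 31.7%. For 4 arms of miR-26, miR-103 and miR-107 it was -0.02, for 8 endothelial and stromal arms 0.04, and for 5 white blood cell arms 0.08, with miR-126-3p at 10.3% and 11.2% and miR-142-3p at 7.99% and 10.4%.

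The same libraries hold short fragments of mRNAs, those of tailing and trimming enzymes among them. Fragment counts were scaled to all reads and depend on the breakdown of an mRNA as well as on its level. Of 28 listed genes, 22 had 20 or more reads, of which 1 was 2-fold or more higher in Ago2ADH and 1 lower with an interval that excludes no difference, against 1.8% and 1.99% of 9550 genes. Fragments of Tut4 numbered 177 in wild type and 147 in Ago2ADH (log2 ratio -0.16, -0.48 to 0.16), and those of Tut7 171 and 121 (-0.39, -0.74 to -0.05). Tent2, which encodes GLD-2, had 53 and 67 (0.45, -0.09 to 0.995), and Dis3l2, whose product degrades uridylated RNA, had 99 and 92 (0.00, -0.42 to 0.43). Parn, whose product trims miR-451, had 45 and 40, and Lin28b, whose product blocks the maturation of let-7, had 19 and 14. Eri1, an exonuclease gene, was the 1 that rose, from 13 to 28 (1.22, 0.22 to 2.29), and Pnpt1, which encodes a mitochondrial exonuclease, the 1 that fell, from 27 to 10 (-1.32, -2.54 to -0.23).

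Ago2 fragments numbered 229 and 318 (0.58, 0.33 to 0.83), Drosha fragments 81 and 43 (-0.80, -1.37 to -0.25) and Dicer1 fragments 98 and 94. Fragments of 7 erythroid marker mRNAs, led by the globins, summed to 13834 reads in wild type and 8271 in the other library, which is -0.63 on the log2 scale (-0.67 to -0.59), and those of 8 hepatocyte markers to 89803 and 86968 (0.06, 0.05 to 0.08). Within the erythroid list, Tfrc, the transferrin receptor, had 178 and 229 fragments (0.47, 0.18 to 0.76), and Epb4.2, a red cell membrane protein, 43 and 32 (-0.32, -1.02 to 0.38). The hepatocyte markers went both ways. Fgb (-0.39), Fga (-0.26), Apoa1 (-0.12), Apob (-0.07) and Alb (-0.04) lay below 0 beyond counting error. Trf (0.32) and Afp (0.29) lay above 0, and the interval of Ttr (0.01) included 0. These values are scaled to all reads. With RefSeq scaling in its place, Alb (0.04) and Apob (0.02) lay above 0, and the other hepatocyte markers kept their sign. The erythroid marker sum was lower in Ago2ADH, as were the miRNA-class reads of miR-451-5p and miR-486-5p, while miR-486-3p had 1842 and 9083. The U-tailed reads of miR-144-3p, which are a part of that arm and not its level, numbered 394 and 1093. The part of the erythroid marker sum in the U-tailed shares of these miRNAs was not tested. A share is taken within 1 miRNA and 1 library, so it does not depend on how the libraries are scaled to each other.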

How the data were processed

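The deposited table gives raw counts, not normalized by the authors, for every distinct read sequence in either library. Per the file headers it lists how many genome matches a sequence has, with a class and a name. Per the labels' protocols, a gel fraction of 19 to 30 nt was ligated to adapters and amplified by RT-PCR. Aligner, genome build and adapter trimming: not given in the sources used here.

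Members and lists were chosen with earlier results of these data known. The unit was the arm of a named miRNA, with loci summed, and a read belonged to the 5p arm when its midpoint lay in the 5′ part of its GENCODE M21 hairpin (99.8% of miRNA reads placed). The tailed share is U-tailed reads over U-tailed plus untailed reads of the extended forms, with exact Clopper-Pearson 95% intervals. Odds ratios were taken after adding 0.5 to all counts and have Woolf intervals. Fold limits, minimums and intervals stand in the report. A count of 0 was given the limit that 3 reads allow. No p-value was computed, since each genotype has 1 library. PCR reads carry no molecular identifier.

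Named were the 15 arms with most U-tailed reads, the 10 with the highest share in wild type, up to 10 largest increases and decreases, the arms of miR-451, miR-144, miR-486, miR-122 and miR-15a, 3 of each list, and the listed genes. Alternatives concerned the untailed reads counted, length, genome matches, minimums, limits, the interval and the scaling. Python 3.11.15, pandas 2.3.3 and scipy 1.17.1 were used.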

Additional observations from a re-analysis of the deposited data

How the results depend on the processing

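The overall log2 odds ratio of 0.27 was positive in every alternative run, but it ranged from 0.0040 to 0.36. At 0.0040 the interval (-0.0078 to 0.016) included 0, so the sign was not settled there. It was 0.14 with all miRNA-class reads as untailed (shares 4.66% and 5.11%), 0.22 with forms of 20 to 24 nt (9.63% in wild type), and 0.35 with forms that match the genome once (8.40% and 10.5%). It was 0.36 with only the most abundant form of each arm (7.86% and 9.85%), and 0.0040 without miR-451 and miR-652-3p (10.03% and 10.05%). With the mean of added C and G taken off, the shares were 9.06% and 10.7%. The level of U-tailed reads was 0.25 when scaled to all reads and -0.035, the opposite sign, when scaled without miR-451, whose fall changes the total.

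With all miRNA-class reads as untailed, the median share was 5.62% and 5.25% on 5p arms, 9.98% and 10.4% on 3p arms. Added A then made 8.39% and 8.40%, added C 0.338% and 0.339%, and added G 0.252% and 0.249%. With the most abundant form, 5p arms had 6.78% and 6.90% and 3p arms 10.8% in Ago2ADH.

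Counts of arms were small and moved easily. With the most abundant form 5 arms were lower, and with C and G taken off 5 were lower. A limit of 1.5 gave 6 higher and 7 lower, and a limit of 3 gave 0 and 1. With 50 or more U-tailed reads 0 were higher and with 10 or more 4 were. Single sequences gave 5 and 15. Some arms that met the rule could not be compared in every alternative. miR-451-3p, which led the falls, had no value when untailed forms were limited by length or to the most abundant one. miR-300-5p had none with the most abundant form, and miR-329-5p none with C and G taken off. Among named arms still compared, beyond miR-300-5p, the call changed for miR-451-5p (-1.50, all miRNA-class reads), miR-103-3p (-1.53, 1 genome match) and miR-486-5p (-1.53, C and G taken off). Each of them then fell, and miR-486-5p was also the arm with the highest share of added C. The causes were not tested. No paired analysis was possible because each genotype has 1 library and the labels carry no replicate numbers. Depth limits arms with few U-tailed reads most: 245 of the 453 arms could not be compared.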

Other observations

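The other added bases gave a few arms of their own that met the size rule. These arms were chosen after their values were seen. Of 229 arms with enough A-tailed reads, 2 rose in Ago2ADH (0.873%) and 6 fell (2.62%). miR-299-5p, of the Dlk1-Dio3 cluster, had an A-tailed share of 5.86% in wild type and 13.3% in Ago2ADH, with a log2 odds ratio of 1.30 (1.01 to 1.59). miR-486-3p had 41 A-tailed reads beside 1748 untailed in wild type and 66 beside 8708 in Ago2ADH (-1.64, -2.20 to -1.07), although its U-tailed share was 17.0% and 19.9%. miR-451-5p had 773 beside 92856 and 4 beside 2456 (-2.19, -3.52 to -0.85). The most A-tailed arm was miR-652-3p, at 48.3% in both libraries, which is also the most U-tailed.

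With added C no arm met the rule in either direction, and the interval spanned no difference in 97 arms, lay above it in 2 and below it in 4. miR-486-5p had the highest C-tailed share, 15.5% and 20.8%, followed by miR-130a-3p with 11.3% and 19.3% (0.91, 0.63 to 1.20), where the median over arms was 0.401% and 0.400%. With added G, miR-378-3p rose from 21 to 52 reads, and miR-31-5p and miR-324-5p fell.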
